A study of Mus musculus with 2 samples.

Results

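The cells described here are the VE-cadherin-positive cells sorted from the aorta-gonad-mesonephros region (AGM) of mouse embryos at the E11.5 stage. They are the wells that the E11.5 table assigns to the AGM and to the VE-cadherin-positive gate and that hold at least 500 detected genes. Of 372 such wells, 287 met this minimum, out of 2644 sorted wells that did so in the whole series. The nearest wells held 501 genes inside the limit and 499 outside it, with 33 wells in the 50 genes above the limit and 32 in the 50 genes below it. The embryos were wild-type C57Bl/6, live cells were taken as negative for the dead-cell dye 7AAD, and no treatment is given. How many embryos were pooled is not given in the sources used here.

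The sorted cells had been dispensed on an ICELL8 chip, a nanowell format in which each well is meant to hold 1 imaged cell, with 1 chip per stage. The comparison pools are the E11.5 AGM VE-cadherin-negative cells (338 wells), the E11.5 yolk sac positive cells (357 wells) and the E9.5 AGM positive cells (299 wells), all of the same strain. Each pool is 1 sample without a replicate, and therefore nothing was tested across samples and p-values are left out. Intervals are exact, at 95%, and reflect the counting of reads or molecules alone, since the sources used here do not tell which of these was counted.

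The AGM surrounds the dorsal aorta and is the place where blood stem cells first arise in the embryo itself. There, some endothelial cells of the aortic wall turn on the transcription factor Runx1, lose their endothelial junctions and become blood, a step called the endothelial-to-haematopoietic transition. VE-cadherin, encoded by Cdh5, is a junction protein of endothelium that emerging blood cells keep for a while. Macrophages carry the receptor Csf1r and are present in embryonic tissues from early on, neutrophils store antimicrobial proteins in granules, and red cells of this age come mainly from the yolk sac and the liver.

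The 287 wells held 850258 counts in all. A well held 995 to 10334 counts (median 2532) and a median of 749 genes, against medians of 2806.5 counts in the AGM negative pool, 3008 in the yolk sac positive pool and 5832 in the E9.5 AGM positive pool. Mitochondrial genes took a median of 7.07% of a well's counts. Haemoglobin genes took a median of 25.6%, between 4.56% and 76.6%. A single row of ribosomal RNA took 19.3% of the pool's counts. Between the chips, 473 well barcodes were shared out of 1378 at E9.5 and 1576 at E11.5, and 83 of them belong to the wells described here.

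Cdh5, on chromosome 8 (104101625 to 104144511 in GRCm38), checks the gate. It reached 406 CPM in the AGM positive pool. CPM is a gene's summed count scaled to the same total in every pool, so it compares 1 gene between pools and not genes with each other. Cdh5 was at 12.8 CPM in the AGM negative pool, 242 CPM in the yolk sac positive pool and 437 CPM in the E9.5 AGM positive pool. A Cdh5 count was found in 143 of 287 wells (49.8%), against 13 of 338 AGM negative wells (3.85%), 159 of 357 yolk sac positive wells (44.5%) and 266 of 299 E9.5 AGM positive wells (89.0%). The pool therefore carries the gene of its gate at a level nearer to the other positive pools than to the AGM negative pool.

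Pecam1, a junction gene of endothelium that white cells also carry (chromosome 11, 106654217 to 106750628), was at 275 CPM in the AGM positive pool. It was at 9.14 CPM in the AGM negative pool, 152 CPM in the yolk sac positive pool and 209 CPM in the E9.5 AGM positive pool. Runx1 (chromosome 16, 92601466 to 92826149) was at 142 CPM in the AGM positive pool, against 21.9, 48.1 and 23.1 CPM in the same 3 pools. Csf1r (chromosome 18, 61100598 to 61132149) was at 106 CPM in the AGM positive pool, against 4.57, 54.6 and 0.526 CPM. Its E9.5 value rests on 1 count.

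As log2 ratios, Runx1 in the AGM positive pool was 2.70 (2.06 to 3.39) above the AGM negative pool, 1.57 (1.11 to 2.04) above the yolk sac positive pool and 2.62 (2.11 to 3.15) above the E9.5 AGM positive pool. Csf1r was 4.53 (3.26 to 6.19), 0.96 (0.48 to 1.43) and 7.65 (5.14 to 12.97) above them. These ratios stand beside a median over all genes of -0.80 against the AGM negative pool, 0.25 against the yolk sac positive pool and -0.33 against the E9.5 pool. Cdh5 was 0.75 (0.52 to 0.97) above the yolk sac positive pool and at -0.11 (-0.29 to 0.08) against the E9.5 pool, a value that turned to 0.10 with size factors, to 0.14 in wells of at least 1000 genes and to 0.29 without globin, mitochondrial and ribosomal RNA counts. Less RNA per cell and fewer cells of a type cannot be told apart in such sums.

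**Figure D1:**
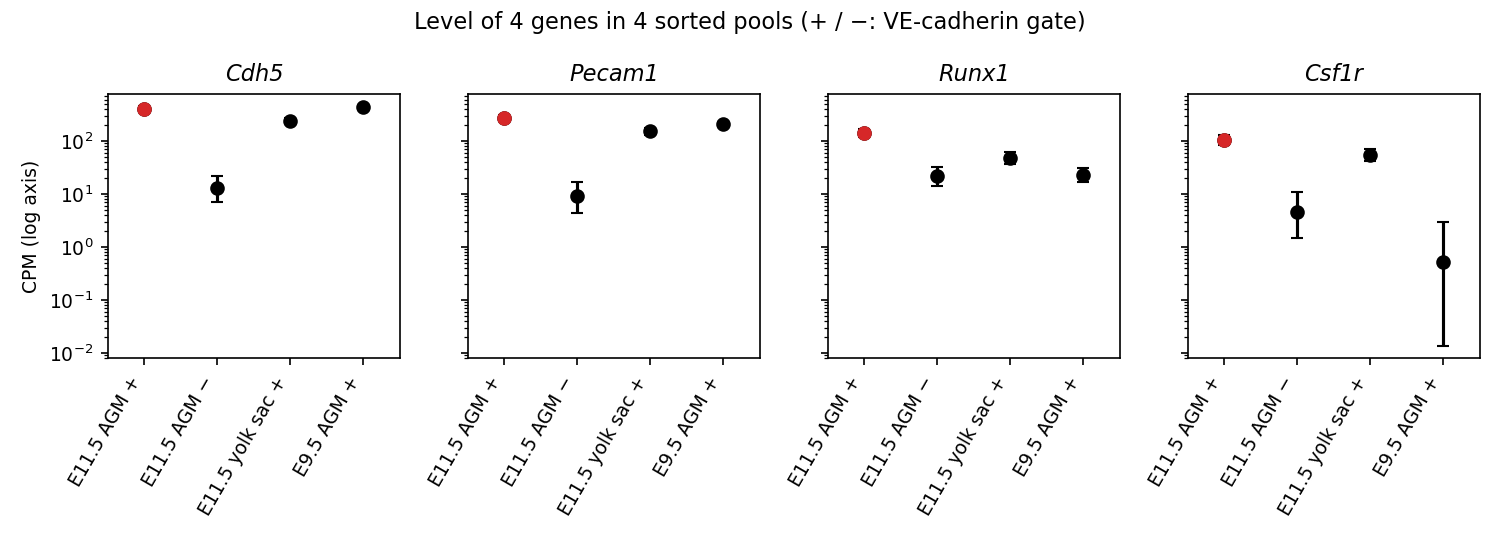
Level of Cdh5, Pecam1, Runx1 and Csf1r in the E11.5 AGM positive pool (red) and 3 other pools, as CPM of summed counts on a log axis, with exact Poisson 95% intervals (counting error only; 1 sample per pool). Runx1 is highest in the E11.5 AGM positive pool at 142 CPM, and Csf1r in the E9.5 AGM positive pool rests on 1 count.

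The wells held several kinds of cell. A well was put in a class when it held at least 3 markers of a cell type, from lists of 12 of which the table holds all 12, or 11 for red cells. Endothelial markers put 125 of 287 wells (43.6%, 37.7 to 49.5%) in a class, macrophage markers 50 (17.4%, 13.2 to 22.3%), neutrophil markers 13 (4.53%, 2.43 to 7.62%), blood progenitor markers 8 (2.79%, 1.21 to 5.42%) and red cell markers 105 (36.6%, 31.0 to 42.4%). 63 wells fell in no class, 158 in exactly 1 and 66 in more than 1.

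These shares depend on depth. After each well was thinned to 1000 counts, which left out 1 well, endothelial markers marked 53 of 286 wells (18.5%), macrophage markers 27 (9.44%), neutrophil markers 7 (2.45%), blood progenitor markers 1 (0.35%) and red cell markers 29 (10.1%). At that depth the yolk sac positive pool had 36 endothelial (10.1%), 21 macrophage (5.88%) and 0 neutrophil wells of 357, where 0 allows a share of up to 0.84%. The E9.5 AGM positive pool had 69 endothelial (23.1%) and 0 macrophage wells of 299, where 0 allows up to 1.00%. The AGM negative pool had 0 endothelial, macrophage and neutrophil wells of 333, which allows up to 0.90% for each. These limits for 0 wells are 3 divided by the number of wells. They are not Clopper-Pearson bounds, which are higher. At their full depth, 0 of the 299 E9.5 wells held 3 macrophage markers, although those wells were the deepest of the 4 pools compared.

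Markers of the remaining cell types were scarce. No well held 3 of the 9 epithelial or of the 7 neural markers in the table. By the Clopper-Pearson interval, 0 of 287 wells allows a share of up to 1.28% for each. No well held 3 mast cell or basophil markers, of which 4 were in the table, or 3 megakaryocyte markers, of which 7 of 10 were at 0 in the pool. Lymphoid cells could not be looked for in this way, because 2 of their markers were in the table. 21 wells held 3 or more mesenchymal markers (7.32%), 13 held 3 or more of visceral endoderm or liver (4.53%) and 1 held 3 of smooth muscle. The 12 mesenchymal markers summed to 367 CPM in the AGM positive pool, with Twist1 at 0, against 1961 CPM in the AGM negative pool and 3008 CPM (52 counts) in the negative control wells of the chip. The 9 markers of visceral endoderm or liver summed to 380 CPM in the AGM positive pool and 3181 CPM (55 counts) in the negative control wells. Both lists were thus below their level in the control wells, and their part in the results was not tested.

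**Figure D2:**
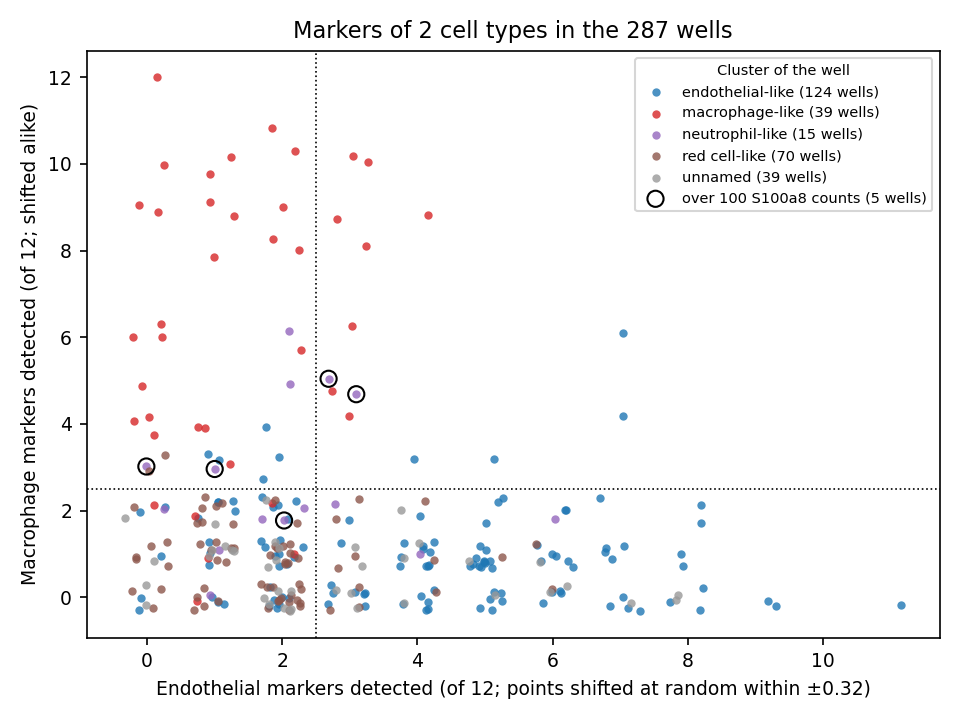
Number of endothelial (x axis) and macrophage markers (y axis) detected in each of the 287 wells, of 12 each, coloured by the cluster of the well; dotted lines mark 3 markers. 14 wells hold at least 3 of both, and the 5 wells with over 100 S100a8 counts (circled) hold 2 to 5 macrophage markers.

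The endothelial wells carried the VEGF receptors Kdr (187 counts in 107 wells of the pool) and Flt1 (153 counts in 88 wells), the angiopoietin receptor Tek (130 counts in 71 wells) and its partner Tie1 (83 counts in 61 wells). Emcn, a sialoprotein of venous and capillary endothelium, had 92 counts in 63 wells. Among the 111 wells with endothelial but not macrophage markers, Cdh5 counts ran from 0 to 14 (median 2) and 89 wells had at least 1. Cdh5 is a member of the list, so this is a description of the class and not a result about it.

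The promoter of Tie1 is shown because it belongs to the endothelial list and because the form AGGAAG, a core bound by ETS factors such as Fli1 and Erg, can be read in it. The sequences here span 250 bases before to 50 after a start site and come from RefSeq (GRCm38.p6). They were searched on both strands for AGGAAG. The form TGTGGT, bound by RUNX factors, was searched too. So was TTGCNNAA, a form bound by C/EBP factors. The GATA form was AGATAA, and overlapping matches were allowed. Capitals mark matches. Tie1 lies on the minus strand at chr4:118489800-118490099.
Tie1: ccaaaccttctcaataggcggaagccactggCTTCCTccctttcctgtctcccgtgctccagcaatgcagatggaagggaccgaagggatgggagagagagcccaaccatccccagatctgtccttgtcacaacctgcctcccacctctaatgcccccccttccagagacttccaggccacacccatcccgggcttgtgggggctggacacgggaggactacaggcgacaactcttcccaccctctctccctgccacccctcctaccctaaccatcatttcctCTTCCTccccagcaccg
The Tie1 window holds 2 matches of AGGAAG, both read CTTCCT on the printed strand. Promoters were found for 8 of the 12 endothelial markers, 10 windows in all, of which 6 hold AGGAAG and 0 hold TGTGGT. Of 32851 promoters of this length, 35.4% hold AGGAAG and 16.8% hold TGTGGT.

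The 12 genes outside the list that stood out most in endothelial wells included genes of vessel walls and of endothelial signalling. Col4a1 and Col18a1 encode collagens of the basement membrane. Calcrl is the adrenomedullin receptor, Adgra2 a co-receptor of Wnt signals in brain vessels, Efnb2 the ephrin ligand of arteries and Plxnd1 a semaphorin receptor. Fgd5, Heg1, Mmrn2, Akap12, Shank3 and Nrxn3 completed the list. Their log2 ratios of endothelial wells over the other wells of the pool ran from 1.82 for Calcrl to 2.61 for Nrxn3. These values chose the genes and are given as a description.

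The yolk sac positive pool, which did not choose the genes, had 137 endothelial wells. All 12 genes had a log2 ratio above 0 there, from 0.23 for Nrxn3 to 2.62 for Shank3. 8 of the 12 were at least 2-fold higher with an interval above 0, against 13.9% of 5108 genes. Col4a1 had 769 CPM in endothelial wells of the yolk sac, against 303 CPM in its other wells. Nrxn3, a neurexin, had 174 CPM in endothelial wells of the AGM and 28.6 CPM in its other wells, but 33.9 and 28.9 CPM in the yolk sac, so its difference was not detectable there at this depth (-0.78 to 1.22).

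Arterial and venous genes were both found in the endothelial wells. Of the 111 wells with endothelial but not macrophage markers, 33 held at least 2 of the listed arterial genes and at most 1 venous gene, and 17 the reverse. 36 wells held at least 2 of each and 25 held fewer than 2 of either. Mecom, a transcription factor of the arterial list, had 332 counts in 132 wells of the pool, and 1 well held 30 of them. Aplnr, the apelin receptor and a venous gene, had 59 counts in 46 wells.

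The macrophage wells carried the complement genes C1qa, C1qb and C1qc (57, 73 and 58 counts in 27, 35 and 29 wells of the pool), the mannose receptor Mrc1 (265 counts in 107 wells), the fractalkine receptor Cx3cr1 (62 counts in 40 wells) and the adaptor Tyrobp (133 counts in 44 wells). Of the 50 wells, 36 held fewer than 3 endothelial markers and 14 held at least 3. Those 14 had a median of 3672.5 counts, against 3155 in the 36 wells and 2712 in the 111 endothelial wells without macrophage markers. The 2 classes met in 14 wells, where the product of their shares is 21.8 wells.

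The genes outside the list that stood out most in macrophage wells were S100a8, S100a9, Ccl3, Fcrls, Ly86, Ms4a6c, Apoe, Pf4, Lyve1, Ifi207, Spi1 and Ctsb. Spi1 encodes PU.1, a master regulator of myeloid cells, Ccl3 and Pf4 are chemokines, Ctsb is a lysosomal protease, Apoe carries lipids and Lyve1 is a hyaluronan receptor of lymphatic vessels and of some tissue macrophages. Their log2 ratios ran from 2.79 for Ctsb to 4.78 for Ccl3, values that chose them, beside 12.3% of 4410 genes that were at least 2-fold higher. Of the 5 wells rich in the granule gene S100a8, 4 also held 3 or more macrophage markers. Without the 5 wells the ratios of S100a8 and S100a9 were 0.11 (-0.63 to 0.79) and -0.65 (-1.72 to 0.29), and the other 10 genes stayed at least 2-fold higher. The macrophage list includes Lyz2, Tyrobp and Fcer1g, which neutrophils also express.

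In the yolk sac positive pool, with 55 macrophage wells, 8 of the 12 genes were at least 2-fold higher with an interval above 0, against 9.65% of 5108 genes. 2 of these 8, Ccl3 and Ly86, had fewer than the 20 counts asked of a tested gene. Pf4 had 897 CPM in macrophage wells and 92.3 CPM in the other wells of the yolk sac. Lyve1 went another way: in the AGM it had 311 CPM in macrophage wells and 24.8 CPM in other wells, and in the yolk sac 287 and 333 CPM, a log2 ratio of -0.22 (-0.63 to 0.17). Apoe was 3.25 higher in macrophage wells of the AGM and 0.98 (0.68 to 1.26) higher in those of the yolk sac.

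Set side by side, the 111 endothelial wells and the 36 macrophage wells differed in vessel and myeloid genes that had not been used to choose them. 6 of 7 measurable arterial genes were at least 2-fold higher in endothelial wells, as were 4 of 5 venous genes and 6 of 7 genes of VEGF and angiopoietin signalling outside the marker list. Nrp1, Nrp2, Vegfc and Dab2 each stand on more than 1 of these lists. All 7 measurable tissue macrophage genes were lower. Over all genes, 15.3% of 2779 were called higher and 9.75% lower, and the median log2 ratio of all was 0.17, against 1.95 for the arterial, 3.03 for the venous and -3.10 for the tissue macrophage genes.

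Nrp2, a VEGF and semaphorin co-receptor of veins and lymphatics, had 72 counts (217 CPM) in endothelial wells and 3 counts (21.1 CPM) in macrophage wells, a log2 ratio of 3.36 (1.76 to 5.67). Mecom had 665 CPM in endothelial wells and 126 CPM in macrophage wells (2.40, 1.70 to 3.18). Aplnr had 40 counts in 32 endothelial wells and 1 count in macrophage wells (4.10, 1.54 to 9.44). Efnb2 had 43 counts in endothelial wells and 0 in macrophage wells, which puts its log2 ratio at 2.62 or more with a floor of 3 counts over the macrophage wells. The arterial gene Notch1 was at 75.2 CPM in endothelial wells and 21.1 CPM in macrophage wells.

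Among tissue macrophage genes, Apoe had 196 CPM in endothelial wells and 1853 CPM in macrophage wells (-3.24, -3.66 to -2.85). Dab2, an endocytic adaptor that had been listed as venous and as a tissue macrophage gene, had 114 CPM in endothelial wells and 941 CPM in macrophage wells (-3.04, -3.60 to -2.51). F13a1, the clotting factor subunit of tissue macrophages, had 48.1 CPM in endothelial wells and 414 CPM in macrophage wells (-3.10, -4.00 to -2.29). Maf and Lgmn, a transcription factor and a lysosomal protease of tissue macrophages, were at -3.12 and -3.32.

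Genes of handling stress were lower in the endothelial wells. All 4 measurable members (Jun, Atf3, Hspa1a and Hspa1b) were at least 2-fold lower, and the 12 listed genes summed to 566 CPM in endothelial wells and 1797 CPM in macrophage wells. The heat-shock gene Hspa1a had 178 CPM in endothelial wells and 702 CPM in macrophage wells. Of the cell cycle genes, 1 of 7 S-phase genes (Pcna) and 1 of 9 G2 and M genes (Hmgb2) were at least 2-fold lower in endothelial wells, near the 9.75% of all tested genes that were lower. Median genes per well were 886 in endothelial and 1157 in macrophage wells, and the part of this gap in the results was not tested.

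**Figure D3:**
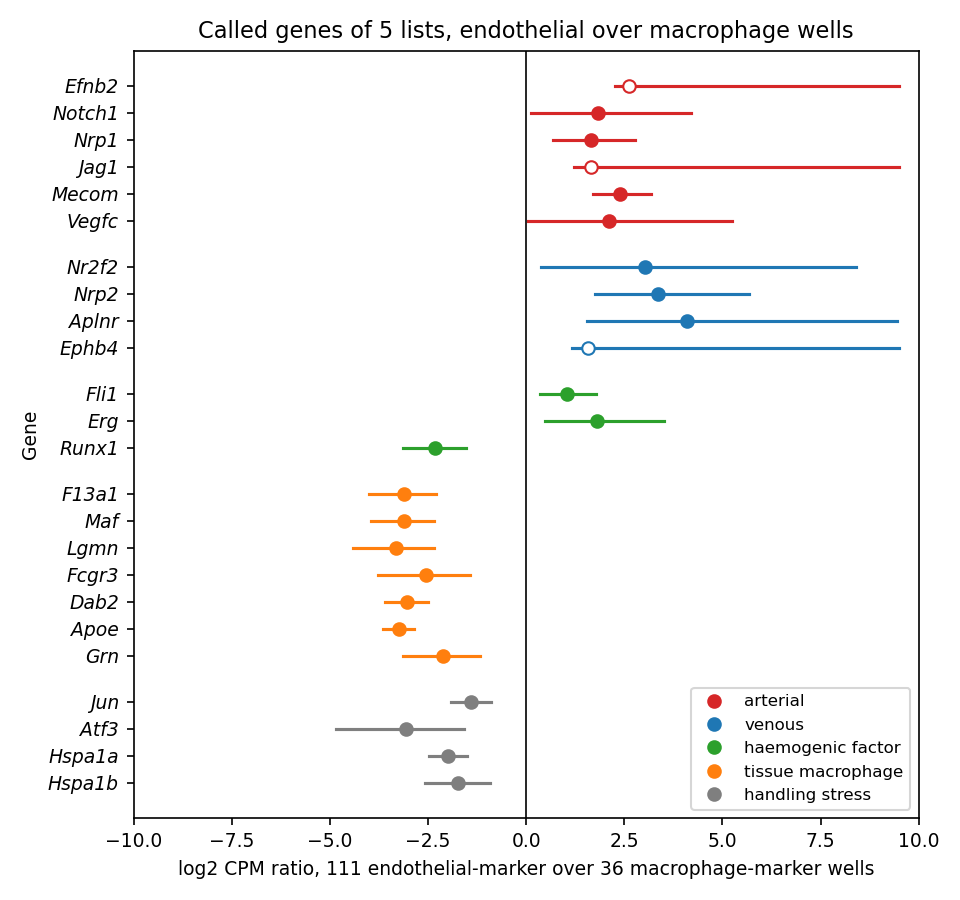
Log2 CPM ratio of the genes called in 5 lists (members that were not called are not drawn) in 111 endothelial-marker wells over 36 macrophage-marker wells, with exact 95% intervals; open points had 0 counts in macrophage wells and stand at the floor of 3 counts, and intervals are drawn to 9.5 at most. Dab2, also listed as venous, is drawn among the tissue macrophage genes at -3.04, and Runx1 lies at -2.32.

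The 121 Runx1 counts fell in 53 of 287 wells (18.5%), and 67 of them in the 50 wells with macrophage markers. Wells with endothelial but not macrophage markers held 21 counts in 9 of 111 wells (63.2 CPM), and wells with macrophage but not endothelial markers held 45 counts in 20 of 36 wells (316 CPM). The log2 ratio was -2.32 (-3.14 to -1.54). With the 13 neutrophil-marker wells left out it was -4.05 (-5.58 to -2.81), with 6 counts in 107 endothelial wells and 41 in 34 macrophage wells. Of these 13 wells, 8 held 0 to 4 S100a8 counts, a level that is not read as expression below. The ratio of -4.05 thus depends on a class that such wells entered at low counts.

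In the 72 wells that held endothelial markers and no 3 markers of any other class, Runx1 had 2 counts in 2 wells (9.47 CPM, 1.15 to 34.2). In the 24 wells of macrophage markers alone it had 37 counts in 14 wells (396 CPM, 279 to 546). The 13 neutrophil-marker wells held 35 counts (624 CPM, 434 to 867) in 8 wells. Of these, the 5 S100a8-rich wells held 8 counts (250 CPM, 108 to 492), and the other 8 wells, with 0 to 4 S100a8 counts, held 27 (1121 CPM, 738 to 1630), of which 12, 8 and 6 lay in 3 wells. The value of this class thus rests mainly on wells with few S100a8 counts. The 57 red cell wells with no other class held 10 counts (63.3 CPM, 30.4 to 116). At a common depth of 1000 counts, 4 counts in 53 endothelial wells stood against 6 counts in 27 macrophage wells, and the log2 ratio of -1.56 had an interval that spans 0 (-3.83 to 0.52).

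Of the 53 wells with a Runx1 count, 32 held 3 or more macrophage or neutrophil markers, and 6 held endothelial markers without 3 markers of macrophages, neutrophils or progenitors. Of the 22 wells with 2 or more Runx1 counts, 19 held macrophage or neutrophil markers and 0 were of that endothelial kind. However, 7 of the 22 held 3 or more endothelial markers. Among them, the well with 8 Runx1 counts and 6 endothelial markers was kept out of that kind by 4 neutrophil and 4 progenitor markers. Its neutrophil markers were at low counts (S100a8 1, S100a9 2, Mpo 1 and Prtn3 2). The wells with a Runx1 count were deeper than the rest, with a median of 3146 counts against 2451.5. Tyrobp was found in 25 of the 53 wells, against 19 of the 234 wells with no Runx1 count, and Fcer1g in 24 against 26.

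8 wells held 5 or more Runx1 counts, together 53 counts. The highest held 12 Runx1 counts with 3 neutrophil markers and 1 Cdh5 count. The next held 8 Runx1 counts with 6 endothelial, 4 neutrophil and 4 progenitor markers, 3 Cdh5 and 2 Kit counts among 6435 counts and 2374 genes. It was the only one of these 8 wells with more than 1 Cdh5 count.

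**Figure D4:**
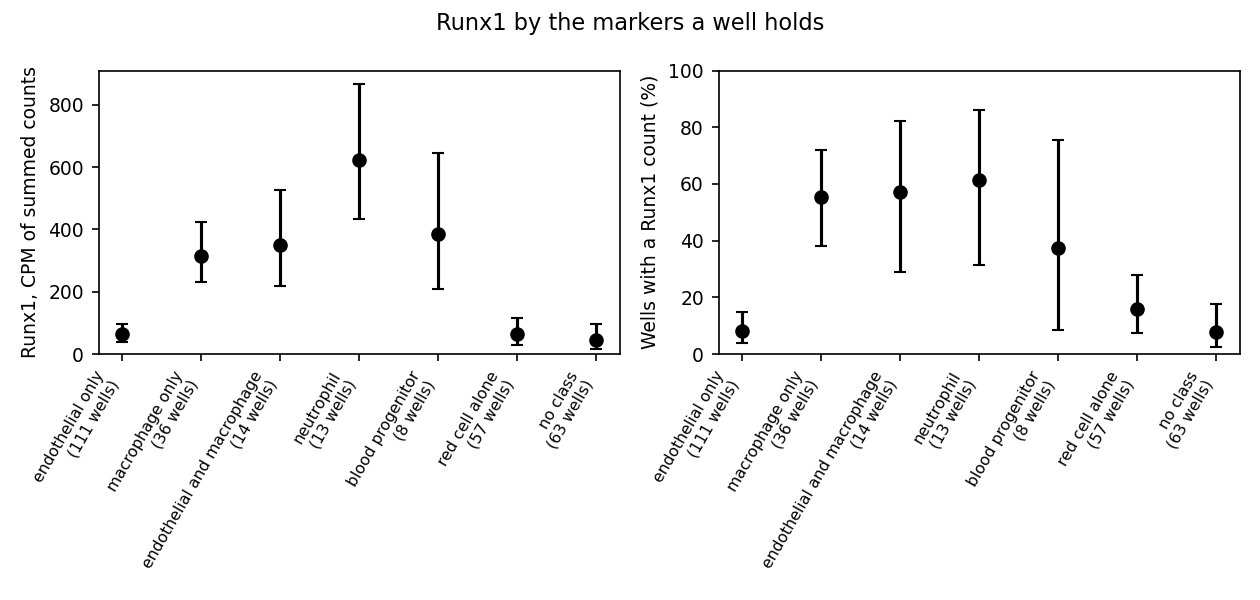
Runx1 in wells grouped by the markers they hold: CPM of summed counts with exact Poisson 95% intervals (left) and share of wells with a Runx1 count with Clopper-Pearson 95% intervals (right). Endothelial-only wells stand at 63.2 CPM and 8.11% of wells, macrophage-only wells at 316 CPM and 55.6%.

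Runx1 has 2 starts in RefSeq, and the gene counts do not separate them. Both windows are shown because Runx1 is the gene on which the comparison above turns. The near start lies inside the gene (chr16:92697280-92697579, minus strand) and the far start at its 5′ end (chr16:92826025-92826324, minus strand).
Runx1 near start: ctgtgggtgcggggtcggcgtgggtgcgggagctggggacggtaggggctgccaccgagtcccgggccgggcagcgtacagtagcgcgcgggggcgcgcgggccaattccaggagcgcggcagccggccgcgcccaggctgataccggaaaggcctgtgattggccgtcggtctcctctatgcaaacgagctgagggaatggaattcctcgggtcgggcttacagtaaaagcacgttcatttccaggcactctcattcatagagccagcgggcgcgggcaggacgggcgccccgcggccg
Runx1 far start: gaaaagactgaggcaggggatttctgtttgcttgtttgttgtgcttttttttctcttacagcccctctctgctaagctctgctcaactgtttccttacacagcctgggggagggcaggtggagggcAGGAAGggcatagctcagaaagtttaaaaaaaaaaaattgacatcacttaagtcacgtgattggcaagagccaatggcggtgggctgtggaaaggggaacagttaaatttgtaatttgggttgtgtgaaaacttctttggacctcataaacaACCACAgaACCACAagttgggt
The far window holds 1 AGGAAG and 2 TGTGGT matches (the TGTGGT ones read ACCACA on the printed strand), and the near window holds no match of the 4 motifs.

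Of 7 measurable haemogenic factors, Fli1 and Erg were at least 2-fold higher in endothelial wells and Runx1 lower, beside 15.3% of all tested genes higher and 9.75% lower. Fli1 had 301 CPM in endothelial wells and 147 CPM in macrophage wells (1.03, 0.34 to 1.78), and Erg 123 and 35.1 CPM (1.81, 0.48 to 3.51). A single well held 18 of the pool's 174 Fli1 counts, and the part of that well in the Fli1 ratio was not tested. Tal1 had 23 counts in endothelial and 3 in macrophage wells (1.72, -0.01 to 4.10). Kit, the stem cell factor receptor, had 16 counts in 111 endothelial wells and 4 counts in 36 macrophage wells (0.78, -0.85 to 2.82), a difference not detectable at this depth. In the whole pool Kit had 32 counts in 27 wells, the leukocyte gene Ptprc 24 counts in 22 wells and the early blood gene Itga2b 5 counts in 5 wells.

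Neutrophil genes were concentrated in very few wells. 5 wells held 658, 359, 243, 234 and 162 counts of S100a8, and no other well held more than 4. These 5 wells held 94.3% of the 1756 S100a8 counts, 93.4% of S100a9, 95.5% of Camp, 97.6% of Ngp, 95.3% of Ltf and 94.4% of Lcn2. S100a8 and S100a9 form the calprotectin of neutrophils, Camp is the cathelicidin peptide, and Ngp, Ltf (lactoferrin) and Lcn2 are proteins of secondary granules.

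The 5 wells were unlike in their granule genes. The first 3 held 67, 23 and 52 counts of Ltf and 0 of Mpo, the myeloperoxidase of primary granules. The fourth held 46 counts of Mpo, 14 of Prtn3, 7 of Elane and 2 of Ctsg, all of primary granules, with 0 of Ltf and 0 of Lcn2. The fifth held 115 counts of Camp, 6 of Mpo and 0 of Ltf. The third well held 243 counts of S100a8 but 1 of S100a9. All 5 lacked Csf1r, and their Cdh5 counts were 0, 0, 0, 1 and 1, so 3 of these wells from a VE-cadherin-positive gate had no Cdh5 count. In the whole pool, 143 of 287 wells (49.8%) had a Cdh5 count and 47 (16.4%) a Csf1r count, so neither lack is particular to these wells.

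The other 8 wells with 3 or more neutrophil markers held 0 to 4 S100a8 counts, and 1 of them held 11 of Mpo. Outside the 5 wells S100a8 was at 122 CPM, against 405 CPM (163 to 834) in the 47 negative control wells of the chip, which rest on 7 counts. The S100a8 counts outside the 5 wells are therefore below the level of the negative control wells and are not read as expression. S100a8 in the whole pool was at 2065 CPM, against 18.3 CPM in the AGM negative pool and 35.0 CPM in the yolk sac positive pool.

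**Figure D5:**
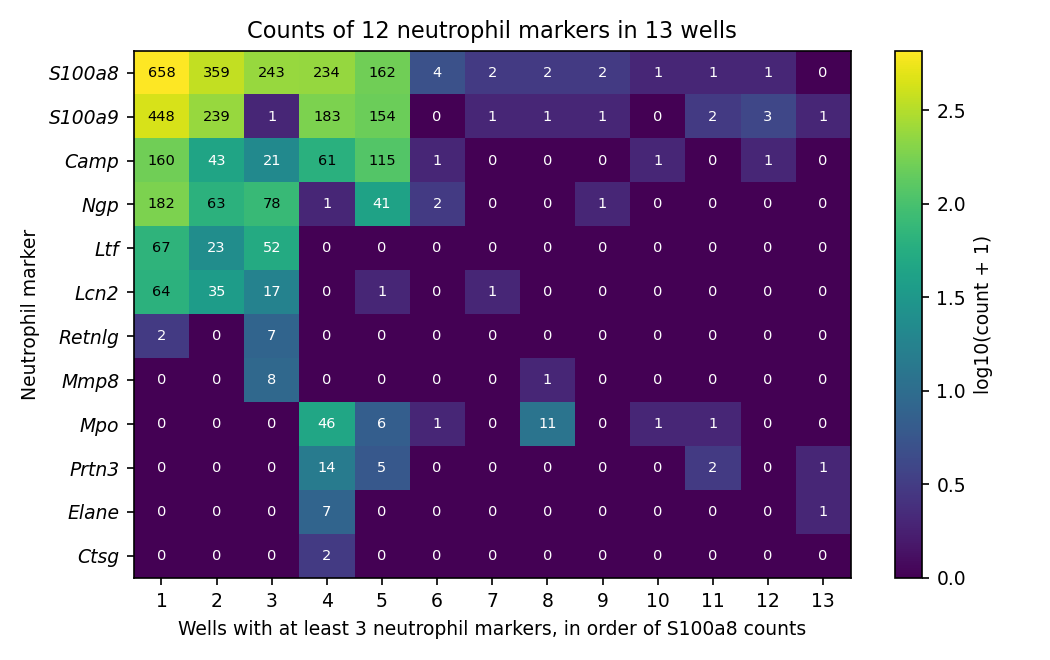
Counts of 12 neutrophil markers in the 13 wells of the pool that hold at least 3 of them, in order of their S100a8 counts; the colour is log10(count + 1). The first 5 wells hold 162 to 658 S100a8 counts, the other 8 hold 0 to 4, and Mpo, Prtn3 and Elane are highest in the fourth well.

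The genes outside the list that went with these wells were stefins and other granulocyte genes. Stfa2l1 had 71 of its 72 counts in the 5 wells, Stfa2 67 of 68, Stfa3 169 of 180 and Stfa1 253 of 299. The stefins are closely related cysteine protease inhibitors, so how reads were split among them is uncertain. Wfdc21 had 63 of 67, Olfm4 51 of 55, Lyz2 (lysozyme) 194 of 237 and Fcnb 21 of 24. Ifitm1, by contrast, had 0 counts in the 5 wells and 34 of its 70 counts in 1 other neutrophil-marker well, and Plac8 had 24 of 60 in the 5 wells. The values of the 13 wells chose these genes. The yolk sac positive pool held 2 such wells, too few to set beside them.

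The S100a8 and Ngp promoters are shown as members of a group of genes that shared the same 5 wells. S100a8 lies at chr3:90668821-90669120 and Ngp at chr9:110419558-110419857, both on the plus strand.
S100a8: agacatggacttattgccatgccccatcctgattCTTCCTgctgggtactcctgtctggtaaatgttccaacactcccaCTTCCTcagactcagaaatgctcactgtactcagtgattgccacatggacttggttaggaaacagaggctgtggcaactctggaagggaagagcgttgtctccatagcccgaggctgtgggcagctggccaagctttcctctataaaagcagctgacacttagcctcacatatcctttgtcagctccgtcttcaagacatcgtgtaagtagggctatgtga
Ngp: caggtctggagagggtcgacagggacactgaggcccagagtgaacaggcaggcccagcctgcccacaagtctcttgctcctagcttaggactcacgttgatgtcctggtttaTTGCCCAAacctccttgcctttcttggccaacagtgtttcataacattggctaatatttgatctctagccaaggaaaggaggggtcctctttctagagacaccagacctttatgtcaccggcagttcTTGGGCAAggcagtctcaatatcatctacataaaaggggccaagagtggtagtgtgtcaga
The S100a8 window holds 2 AGGAAG matches, read CTTCCT, and the Ngp window 2 TTGCNNAA matches. All 12 neutrophil markers had a promoter window, of which 9 hold AGGAAG, 6 hold TTGCNNAA and 3 hold TGTGGT. Over all 32851 promoters, 10.8% hold TTGCNNAA. A match describes letters in this window and is no measure of binding.

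Blood progenitor markers were sparse. 8 wells held 3 or 4 of the 12, mostly as single counts, and they were the deepest class, with a median of 4138.5 counts and 1566.5 genes. Ikzf1 had 38 counts in 33 wells and Plac8 60 counts in 13 wells, while Hlf had 6 counts, Myb 7, Gata2 10, Spn 2 and Cd48 1. Of the 8 wells, 4 also held 3 or more macrophage markers, 3 held endothelial markers and 1 held neutrophil markers.

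Some wells with high counts of 1 gene are described here after their values were seen. 1 progenitor-marker well, which also held 6 macrophage markers, held 32 counts of Mpo and 13 of Prtn3. With them came Myb, Spn, Ikzf1, 4 counts of Spi1, 1 of Csf1r, 0 of S100a8 and 0 of Runx1. Another held 30 counts of Cpa3, the carboxypeptidase of mast cells and their precursors, with 12 of Plac8, 4 of Hdc (histidine decarboxylase), 1 of Kit and 5 of Runx1. This well held 30 of the pool's 36 Cpa3 counts. Another well, in the macrophage class with 5 markers and in no progenitor class, held 15 of the pool's 33 Hdc counts. It also held 10 counts of Ifitm1, 1 of Gata2 and 5 of Runx1. The mast cell and basophil markers summed to 82.3 CPM in the AGM positive pool, against 0.914 CPM in the AGM negative pool and 0.815 CPM in the yolk sac positive pool.

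Red cell markers were the second most frequent. Alas2, the first enzyme of haem synthesis in red cells, had 268 counts in 146 wells and the membrane transporter Slc4a1 191 counts in 108 wells. The early erythroid factors Klf1 and Gata1 had 4 and 14 counts. Of the 105 red cell wells, 38 also held 3 or more endothelial markers, where the product of the shares is 45.7 wells. The 57 wells with red cell markers alone had a median of 606 genes and 40.2% haemoglobin counts, against 749 genes and 25.6% in the pool.

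The genes that went with the red cell wells were membrane skeleton and blood group genes: Ank1, Epb41, Sptb, Rhd and Kel, with the mitochondrial carrier Slc25a21, the phosphatase Acp5, Reln, the metal transporter Slc39a8 and Cpeb4. S100a8 and S100a9 were also among the 12 by their rule, but without the 5 S100a8-rich wells their ratios were 0.56 (-0.04 to 1.15) and 0.02 (-0.72 to 0.74). Slc25a21 had 252 CPM in red cell wells and 45.0 CPM in the other wells of the AGM, and 175 and 46.0 CPM in the yolk sac. In the yolk sac 7 of the 12 genes were at least 2-fold higher with an interval above 0, against 2.04% of 5109 genes.

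Haemoglobin RNA was found in every well, whatever its class. The embryonic globins Hba-x, Hbb-bh1 and Hbb-y made up 63.7% of the globin counts of the pool, and between 62.7% and 64.4% in every class of wells compared, from macrophage wells to red cell wells. Endothelial wells without macrophage markers held 63.9% embryonic globin at 21.8% globin counts, and red cell wells of no other class held 63.9% at 42.5%. Over the same 7 globin rows it was 68.4% in the AGM negative pool and 62.1% in the yolk sac positive pool. Over the 5 rows used from both stages' tables it was 68.3% in the AGM positive pool and 80.3% in the E9.5 AGM positive pool. In the 47 negative control wells it was 73.8% over the 7 rows, with 23.8% of counts from globins. Globin counts in endothelial or macrophage wells are thus not read as expression by those cells.

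Clustering did not use the class rule. 8 Leiden clusters were found, of which 4 with 124 wells were endothelial-like, 1 with 39 wells macrophage-like, 1 with 15 wells neutrophil-like and 1 with 70 wells red cell-like. The 4 endothelial-like clusters had 0 endothelial markers among their 10 leading genes, which began with Zfp366 and Scarb1, Ddx52 and Vps13a, Pcdh9 and Drg1, and Nos1ap and Ppm1l, and their name rests on 5 to 10 detected markers each. A cluster of 39 wells stayed unnamed: its leading genes included Vcan, Ptn and Gja1, 17 of its wells held 3 or more endothelial markers and 7 held mesenchymal ones. Runx1 had 55 counts in the macrophage-like cluster, 48 in the neutrophil-like one, 9 in the 4 endothelial-like ones together, 8 in the red cell-like one and 1 in the unnamed one. Of the 48, 8 lay in the 5 S100a8-rich wells and 40 in the cluster's other 10 wells, which held 0 to 2 S100a8 counts. Since the clusters were made from these genes, this is a description.

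The neutrophil-like cluster held the 5 S100a8-rich wells and 5 of the 8 wells with 5 or more Runx1 counts, and the macrophage-like cluster held the other 3. In the neutrophil-like cluster 8 of the 15 wells held 3 or more neutrophil markers, so the name describes a part of its wells. The leading genes of that cluster included Stfa2l1, Stfa2, Ngp, Pglyrp1, Sgms2, Cd300lf, Camp, Ltf and S100a8. The macrophage-like cluster was led by Gna15, Ctss, Aif1, Ly86, C1qc, Ifi207, P2ry6, Fcrls, Tbxas1 and C1qb. No cluster was led by progenitor markers.

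The genes most like Cdh5, Csf1r and Runx1 were ranked over the 287 wells. Pearson's r of log2(counts per 10000 + 1) with Cdh5 was 0.41 for Col4a1, 0.37 for Pecam1, 0.31 for Utrn (utrophin) and 0.30 for Tie1, among 2360 genes whose median r was 0.04. With Csf1r it was 0.47 for Fcrls and Ctss, 0.43 for Ctsb and 0.41 for Mrc1. With Runx1 it was 0.44 for Plek (pleckstrin) and Laptm5, 0.39 for Tyrobp, 0.38 for Fyb and 0.37 for Cx3cr1. All wells share 1 chip and 1 preparation; the r of each gene with well depth was 0.00 for Cdh5, 0.15 for Csf1r and 0.18 for Runx1. Cdh5 and Csf1r were found together in 16 wells, where the product of their shares is 23.4 wells, and Csf1r and Runx1 in 20 wells, where it is 8.68.

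Against the other E11.5 pools, the AGM positive pool carried markers of its white cells. All 12 macrophage markers were at least 2-fold higher than in the AGM negative pool, and 11 of 11 measurable endothelial and 8 of 8 neutrophil markers, against 6.49% of 8708 genes called higher and 37.3% called lower. With TMM scaling the calls in that comparison were 968 higher and 1335 lower, against 565 and 3252 by pool totals. All 11 measurable mesenchymal markers were lower. The gate selects on VE-cadherin, so the endothelial count is a description of the sort. The AGM negative pool held 76 counts over the macrophage list and 59 over the neutrophil list, against 1322 and 4116 in the AGM positive pool. These markers thus met the minimum count of a tested gene mainly through the AGM positive pool. Their numbers called higher are therefore descriptions too. Most of the neutrophil counts also lay in the 5 S100a8-rich wells.

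Against the yolk sac positive pool, 7 of 12 macrophage and 8 of 8 neutrophil markers were also higher. Of 4 measurable blood progenitor markers 1 was higher (Plac8), and of 12 endothelial markers 1 (Emcn). Over all 7303 genes, 9.23% were called higher and 3.55% lower. The leukocyte gene Ptprc was not higher, at a log2 ratio of -0.17 (-0.97 to 0.60). The neutrophil value rests largely on the 5 S100a8-rich wells. They held 93.4% to 97.6% of the counts of S100a8, S100a9, Camp, Ngp, Ltf and Lcn2, 41.6% of Mpo and 47.5% of Prtn3. The yolk sac positive pool held 128 counts over the 12 neutrophil markers, so this value is a description. With TMM scaling the genes called became 390 higher and 409 lower, against 674 and 259. The 8 measurable visceral endoderm and liver genes were all lower in the AGM positive pool, with 380 CPM for the list in the AGM and 7873 CPM in the yolk sac. Stab2, Lyve1, Gpr182 and Colec12, scavenger receptors of sinusoidal and lymphatic endothelium, were lower as well. Bmx and Mecom of 13 measurable arterial genes were higher.

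Against the E9.5 AGM positive pool, all 12 macrophage markers, 10 of 10 measurable tissue macrophage genes and 7 of 10 stress genes were at least 2-fold higher, and 9 of 14 S-phase genes and 4 of 14 G2 and M genes were lower, beside 8.6% of 8502 genes called higher and 20.4% lower. With size factors the calls were 957 higher and 1198 lower, and without globin, mitochondrial and ribosomal RNA counts 1272 higher and 855 lower, against 731 and 1737 by pool totals. The E9.5 pool held 69 counts over the 12 macrophage markers, which met the minimum of 20 counts mainly through the E11.5 pool. Their number called higher is therefore a description, and that of the tissue macrophage genes is given as one too. Of 12 endothelial markers none was called higher and Cldn5 was called lower. The stage and the chip cannot be told apart in this comparison, and the E9.5 wells had a median of 1831 genes.

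The genes that stood out most against all 3 other E11.5 pools were S100a9, S100a8, Stfa1, Lyz2, Pde8a, Cd52, Klhl4, Col15a1, Arhgef28, Rac2, Plek and Arhgap18. Cd52 had 50 of its 71 counts and Rac2 44 of 70 in the 50 macrophage-marker wells. The 13 neutrophil wells held 1669 of 1756 S100a8 counts, and without the 5 S100a8-rich wells the log2 ratio of S100a8 over the yolk sac positive pool was 1.80 (1.27 to 2.35) in place of 5.88. The 125 endothelial wells held 58 of 76 counts of Pde8a, a phosphodiesterase, 51 of 78 of Klhl4 and 137 of 191 of Arhgap18. Pde8a was at 89.4 CPM in the AGM positive pool, against 3.66 CPM in the AGM negative pool and 5.70 CPM in the yolk sac positive pool.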

How the data were processed

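Single wells of sorted mouse embryonic cells were analysed from the deposited count tables, in which the authors give a whole count for each gene in each well. Per the submitters' processing notes, FastQC, cutadapt and STAR were used with mm10 (GRCm38); tool versions, the counter, the gene annotation and whether molecular identifiers were counted are not given in the sources used here. The E11.5 table holds 20823 gene rows and 1576 wells.

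Wells with at least 500 genes were kept. Counts were summed per pool or class and scaled to CPM by the pool's total, which includes the ribosomal RNA row. Ratios have exact conditional binomial intervals, shares Clopper-Pearson and levels Poisson intervals, all at 95% and for counting error only. Limits for classes with 0 wells after thinning are instead 3 divided by the number of wells. No test across samples was possible with 1 sample per pool. A gene was called at 2-fold or more with an interval clear of 0 and at least 20 counts; 0 counts stand at a floor of 3 counts over the group. Thinning drew 1000 counts per well. Clusters came from scanpy 1.11.5 and leidenalg 0.10.2; a cluster lost its name where wells of another list outnumbered its own and no marker led it, a rule added after seeing the data. Scrublet marked 7 of 1361 wells (0.514%) as doublets, 3 of them in the pool; they were kept. TMM (edgeR 4.0.16) and size factors (DESeq2 1.42.0) served as scaling alternatives only. Python 3.11.15, numpy 2.4.6, pandas 2.3.3, scipy 1.17.1, matplotlib 3.10.9 and R 4.3.3 were used. The interval method was run on simulated Poisson counts, the case that it assumes. That simulation leaves out the uneven spread of counts among wells, so it cannot show how the intervals hold for such genes.

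Genes named for a class are the 12 outside its list with the highest lower bound of the ratio over the other wells, among genes with at least 20 counts and in at least 20% of class wells. Genes like Cdh5, Csf1r or Runx1 are the 8 with the highest r among genes in at least 10% of wells. Genes of the pool are the 12 with the largest smallest ratio over the other E11.5 pools, with at least 50 counts. The members and the gene lists were chosen with earlier results of these data known.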

Additional observations from a re-analysis of the deposited data

Results flagged for a closer look

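The 85 AGM VE-cadherin-positive wells with fewer than 500 genes were left out of the results above, and they carried Alas2 at 558 CPM (73 counts, 437 to 701), above the 116 CPM (2 counts, 14.0 to 418) of the negative control wells. Haemoglobin took a median of 40.8% of their counts, against 23.9% in the negative control wells, and they had a median of 1483 counts.

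Some genes moved in opposite directions between the AGM and the yolk sac positive pools, each of which is 1 sample, so the difference was not tested. In macrophage wells over the other wells, the log2 ratio of S100a8 was 4.32 for AGM wells and -1.09 (-3.03 to 0.38) for yolk sac wells, that of S100a9 3.68 and -0.051 (-2.07 to 1.54), and that of Lyve1 3.65 and -0.22 (-0.63 to 0.17). In red cell wells over the other wells, S100a9 had 1.33 for AGM wells and -0.92 (-2.27 to 0.38) for yolk sac wells, and S100a8 at 0.94 and -0.20 (-1.13 to 0.75). The yolk sac intervals of all 5 span 0. The S100a8 and S100a9 values of the AGM rest on 5 wells and are given without them above.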

How the results depend on the processing

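No paired analysis was possible because each pool is 1 sample and the labels carry no replicate numbers. Of 208 main comparisons of a result with an alternative, 155 stayed within the main interval or, for counts of genes, which have none, within a set fold. The other 53 moved by more, and none of the called values changed sign. The causes were not tested. The Cdh5 ratio to the yolk sac positive pool was 0.46 in wells of at least 1000 genes, 0.49 with TMM or size factors or without globin, mitochondrial and ribosomal RNA counts, and 0.51 without globin and mitochondrial counts. The Cdh5 ratio to the E9.5 pool was 0.14 at 1000 genes, 0.10 with size factors and 0.29 without globin, mitochondrial and ribosomal RNA counts. That of Pecam1 was 0.74 at 1000 genes and 0.80 without these 3 kinds of counts. Runx1 was at 3.42 over the AGM negative pool with size factors and 3.29 over the E9.5 pool at 1000 genes. Genes called higher than in the AGM negative pool numbered 968 with TMM, 1101 with size factors and 861 with no filter on low counts. Without globin, mitochondrial and ribosomal RNA counts they numbered 963. Against the yolk sac positive pool they numbered 382 at 1000 genes, 390 with TMM, 393 with size factors, 402 without globin and mitochondrial counts and 392 also without the ribosomal RNA row. Against the E9.5 pool they numbered 1272 without globin, mitochondrial and ribosomal RNA counts and 1289 with no filter on low counts.

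Class shares were 70.0% endothelial, 34.1% macrophage, 17.8% neutrophil, 8.71% progenitor and 62.0% red cell wells at 2 markers. At 4 markers they were 32.8% endothelial, 0.697% progenitor and 19.5% red cell wells. Thinned, they were 18.5% endothelial, 9.44% macrophage, 0.350% progenitor and 10.1% red cell wells. In wells of at least 1000 genes they were 63.6%, 36.4%, 7.95%, 6.82% and 21.6% in the order endothelial, macrophage, neutrophil, progenitor and red cell. The Runx1 ratio of endothelial over macrophage wells was -3.72 at 2 markers and, in alternatives chosen after seeing the data, -4.05 without neutrophil-marker wells, -3.59 without wells of 5 or more Runx1 counts and -5.39 without wells of any other class. Genes higher in endothelial wells fell to 38 when thinned, and genes lower to 37, where fewer counts enter; genes lower were 180 at 2 markers. Endothelial-like clusters held 52.6% of wells at resolutions 0.5 and 1.5, 50.9% with 20 neighbours and 30.3% when all genes could be variable genes. Red cell-like clusters held 5.92% at resolution 1.5 and 30.0% with 2000 variable genes and 20 components.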
